A study of Mus musculus with 6 samples.

Results

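The genes described here encode the nuclear protein C1D, the proteins it is known to bind, and the nuclear RNA exosome with which it works. They are C1d, Tsnax, Tsn, Prkdc, Exosc10, Mphosph6, Dis3, Exosc2, Exosc3 and Exosc9, chosen by name because C1D is the protein that the study examined as a binding partner of the long non-coding RNA Gm39822. These 10 genes were found by symbol among the 49315 genes of the count table, and all 10 passed the filter on low counts. The study asked how Gm39822 acts in endothelial cells, and its RNA sequencing compared cells in which Gm39822 was knocked down with cells given a control oligonucleotide. The cells were bEND.3, an immortalised mouse brain endothelial line. All libraries came from this single line, transfected with Lipofectamine 2000 in culture. The 4 GapmeR libraries received an antisense LNA GapmeR against Gm39822 at 100 nM, a locked nucleic acid oligonucleotide that directs cleavage of its target RNA. The 2 negative control libraries received a control LNA GapmeR at the same 100 nM. A single targeting GapmeR was used, so an effect of the oligonucleotide itself and an effect of losing Gm39822 cannot be told apart. Nothing states that the libraries came from separate cultures, so p-values measure the spread between these libraries, which may be technical.

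C1D is a small DNA- and RNA-binding protein of the nucleus. It binds the exosome nuclease EXOSC10 and helps to bring structured nuclear RNAs, such as precursors of ribosomal RNA, to the exosome. It also binds TRAX, the product of Tsnax and partner of translin. C1D further activates the DNA-dependent protein kinase, which acts in the joining of broken DNA ends. The RNA exosome is a barrel of catalytically inactive subunits, a ring and a cap, to which the nucleases DIS3 and EXOSC10 attach.

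Gm39822, an lncRNA gene of chromosome 11, had 2, 1, 4 and 2 counts in GapmeR libraries 1 to 4 and 61 and 56 counts in the controls, and fell by 4.82 on the log2 scale (SE 0.41, edgeR quasi-likelihood test). The libraries held between 29261988 and 37117934 counts, so that the limit that a count of 0 allows, 3 counts, corresponded to 0.0771 to 0.110 CPM (counts per 1000000 counts of a library, scaled by TMM). The endothelial markers were all detected, with a summed level of 6103 to 6933 CPM in the GapmeR libraries and 7841 to 8068 CPM in the controls. Of these, 1 of 9 was higher (Erg, 1.12) and 5 of 9 were lower, where 25.4% of all genes were higher and 20.0% lower. The 5 were Emcn (-1.33), Esam (-0.63), Cdh5 (-0.51), Kdr (-0.33) and Pecam1 (-0.30) on the log2 scale. With library size scaling, Pecam1 (adjusted p = 0.102) and Kdr (0.0658) were no longer called lower, and Tie1 (0.29, adjusted p = 0.0038) and Cldn5 (0.24, 0.0187) were called higher. By that scaling 33.5% of all genes were higher and 11.7% lower. The 6 macrophage markers summed to 128 to 166 CPM against 101 to 103 CPM, and 2 of 6 were called higher (Cd68 and Fcgr1). Csf1r reached 22.6 and 25.8 CPM in GapmeR libraries 3 and 4 against 6.83 to 9.33 CPM in the other 4 libraries. Adgre1 (10.4 and 13.4 CPM against 3.73 to 4.99 CPM), Ptprc and Itgam were split in the same way. Cd68 was not, and Fcgr1 was so only slightly (0.709 and 0.960 CPM against at most 0.616 CPM). Mural markers summed to 6.50 to 9.90 CPM against 1.16 to 1.68 CPM. Myh11 alone of them was called (4.19, adjusted p = 9.94e-10). It made up most of the GapmeR sums, at 5.37 to 5.93 CPM in the GapmeR libraries and 0.365 and 0.251 CPM in the controls. Astrocyte markers summed to 1.92 to 3.53 CPM against 5.51 to 5.62 CPM, with Gfap (-1.01, adjusted p = 0.0227) and Slc1a3 (-1.08, 0.0044) called lower. Epithelial markers summed to 0.177 to 0.341 CPM against 0.0365 to 0.094 CPM. Of these only Krt8 passed the filter, and it was called higher (1.99, adjusted p = 0.0424) from 1 to 10 counts. Whether these markers came from other cell types or from the bEND.3 cells themselves was not tested. In bulk RNA fewer cells of a type and less RNA per cell cannot be told apart.

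Of the 10 genes, 3 were higher in the GapmeR libraries at an adjusted p under 0.05, none was lower, and 7 were not called. The 3 were Prkdc, Dis3 and Exosc9, each with a fold between 1.33 and 1.46. C1d itself was not called, and neither were its partners Tsnax and Exosc10, while its partner Prkdc was. Across all 18234 genes tested, 45.3% were called, 25.4% higher and 20.0% lower, so 3 of 10 called was below the share of all genes and 3 of 10 higher lay near it. None of the 10 was called with a change of at least 1.5-fold, against 17.8% of all genes higher and 7.62% lower by that rule. The groups did not overlap in 4 of the 10 genes, against 59.2% of all genes. The median log2 fold change of the 10 was 0.06, and that of all genes tested was 0.03, with 7 of the 10 genes and 52.1% of all genes above 0. Scaled by library size only, 33.5% of all genes were higher and 11.7% lower, with 5 of the 10 genes higher, and after GC correction 21.2% were higher and 32.0% lower around a median of -0.11, with 3 of the 10 higher and 1 lower. The plot of CPM shows each gene in each library.

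**Figure D1:**
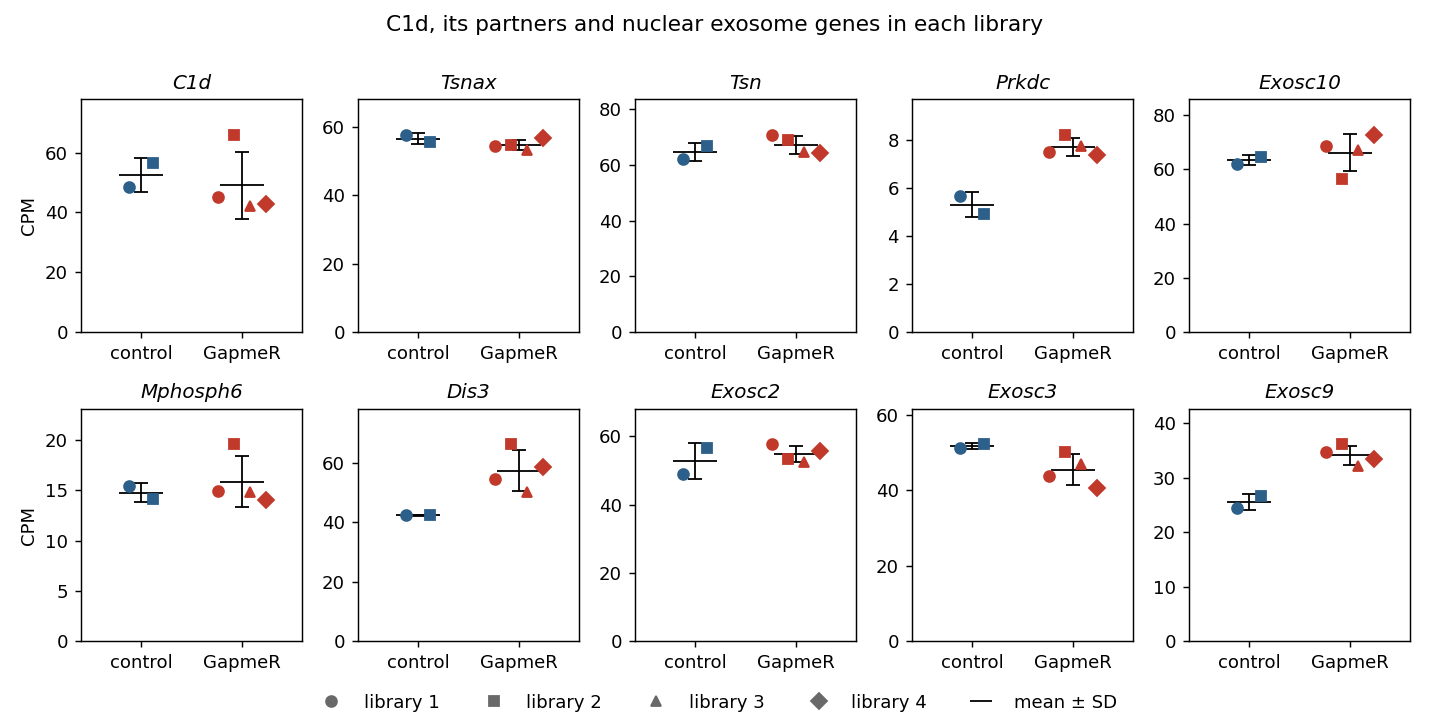
CPM (vertical axes, each from 0) of the 10 genes in the 2 negative control libraries (blue) and the 4 GapmeR libraries (red), with symbols for the libraries and bars for the mean and SD. Prkdc, Dis3 and Exosc9 lie above both controls in every GapmeR library, and C1d in GapmeR library 2 stands at 65.9 CPM above the other GapmeR libraries.

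Promoters of C1d, Dis3 and Exosc3 are shown because C1d is the gene the study turns on and had a library apart, Dis3 was called higher, and Exosc3 was below the controls in each GapmeR library without a call. The sequences run from 250 bases before to 50 bases after the start used in the RefSeq promoter table for GRCm38.p6, the build the authors aligned to, and are written along the gene's own strand. For C1d and Dis3 that start lies inside the annotated span of the gene, so part of the window before it is within the gene. Capitals mark the motifs that were searched for on both strands. C1d lies at chr11:17257438-17257737 on the plus strand, Dis3 at chr14:99099721-99100020 on the minus strand, and Exosc3 at chr4:45320567-45320866 on the minus strand.
C1d: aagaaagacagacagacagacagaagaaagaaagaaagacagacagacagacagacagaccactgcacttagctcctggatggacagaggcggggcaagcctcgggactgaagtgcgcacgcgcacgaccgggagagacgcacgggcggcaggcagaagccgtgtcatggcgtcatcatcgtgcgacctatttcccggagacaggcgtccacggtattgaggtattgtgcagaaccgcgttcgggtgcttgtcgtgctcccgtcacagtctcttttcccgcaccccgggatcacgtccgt
Dis3: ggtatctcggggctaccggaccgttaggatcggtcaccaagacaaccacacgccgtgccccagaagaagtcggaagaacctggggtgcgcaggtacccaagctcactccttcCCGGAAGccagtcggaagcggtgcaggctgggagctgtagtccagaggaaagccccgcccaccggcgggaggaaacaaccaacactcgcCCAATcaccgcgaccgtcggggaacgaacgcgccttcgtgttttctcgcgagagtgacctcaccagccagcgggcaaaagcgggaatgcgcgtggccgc
Exosc3: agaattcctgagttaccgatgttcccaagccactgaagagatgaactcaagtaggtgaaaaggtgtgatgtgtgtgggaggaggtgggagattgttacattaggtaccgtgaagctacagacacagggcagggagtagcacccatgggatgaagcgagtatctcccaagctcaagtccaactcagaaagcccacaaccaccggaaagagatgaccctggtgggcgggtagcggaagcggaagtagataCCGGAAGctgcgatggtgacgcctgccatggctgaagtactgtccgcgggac

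The motifs were the ETS core CCGGAAG, the box with the letters CCAAT, the NRF1 core GCATGCGC, the YY1 motif AAGATGGCG, the TATA box with the letters TATAAA and the E-box CACGTG, none of which overlapped another in the 3 sequences. Dis3 held 1 ETS core and 1 CCAAT, Exosc3 held 1 ETS core, and the C1d window held none of the 6. Of all 32851 promoters in the table, 8.86% held the ETS core, 37.4% CCAAT, 2.71% the NRF1 core, 1.40% the YY1 motif, 13.6% TATAAA and 7.15% the E-box. The table held 8 promoters of 7 of the 10 genes. These had 11 to 37 CpG pairs, against a median of 7 over all promoters (quartiles 3 and 20). That background was not limited to genes expressed in these cells. Tsnax, Prkdc and Exosc9 were not matched.

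C1d (ENSMUSG00000000581) lies at chr11:17257547-17269176, 34.6 Mb from Gm39822 on the same chromosome. Its level was 45.0, 65.9, 42.3 and 42.8 CPM in GapmeR libraries 1 to 4 and 48.3 and 56.4 CPM in the controls. GapmeR library 2 was the highest of all 6 libraries, the other 3 GapmeR libraries were below both controls, and the groups overlapped. The GapmeR mean was 49.0 ± 11.3 CPM (SD, n = 4) beside 52.4 ± 5.71 CPM for the controls (SD, n = 2), giving a log2 fold change of -0.09 (SE 0.20, 95% interval -0.57 to 0.38, adjusted p = 0.736). The interval spans both a decrease and an increase, so no change of C1d in either direction was detected with these libraries. In this fit the interval leaves out a 1.5-fold increase, and a 1.5-fold decrease only narrowly. A two-sided exact permutation test gave p = 0.8, where 0.0667 was the smallest that 4 against 2 libraries can give.

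The C1d value rested on GapmeR library 2. Without it, the 3 GapmeR libraries averaged 43.4 ± 1.43 CPM (SD, n = 3), the log2 fold change was -0.27 (SE 0.07, 95% interval -0.43 to -0.11), and C1d was called lower with adjusted p = 0.0064, a fold of 1.21. The exact permutation p over these 5 libraries was 0.1, which is the smallest they can give. Scaled by library size only and without the same library, the log2 fold change was -0.13 and not called (adjusted p = 0.153). With GapmeR libraries 1 and 2 only, leaving out the 2 libraries with more macrophage marker counts, it was 0.10 (adjusted p = 0.644), and without negative control 2 it was 0.04 (adjusted p = 0.924). Scaling by library size alone moved the median of all genes from 0.03 to 0.17 and turned C1d to 0.06 (adjusted p = 0.853).

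**Figure D2:**
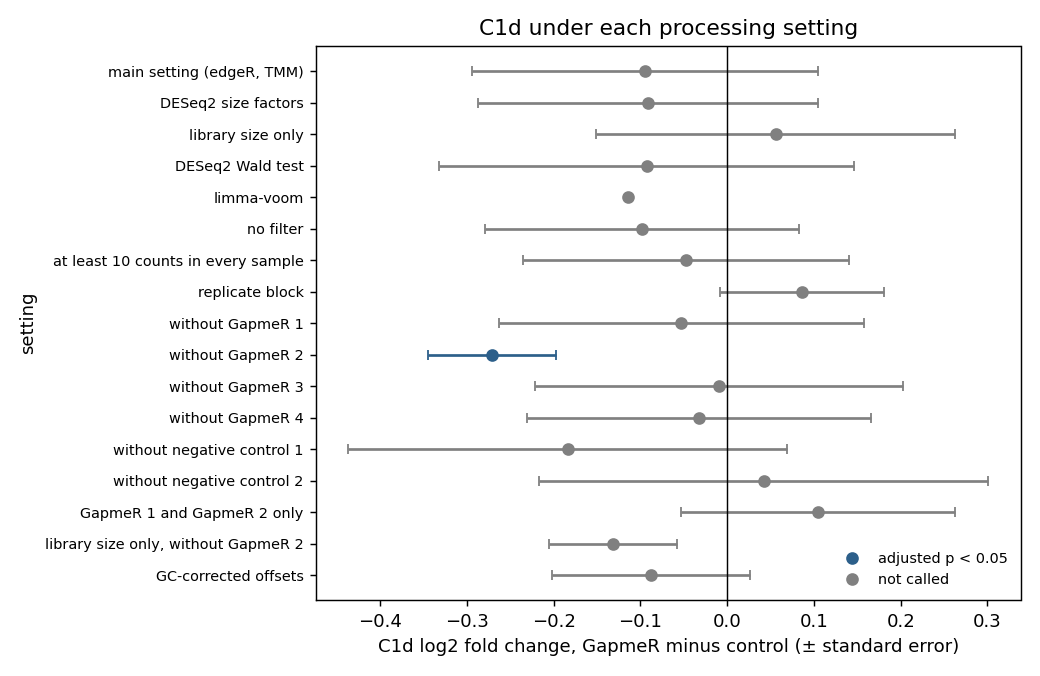
Log2 fold change of C1d (horizontal axis, GapmeR minus control, bars ± 1 standard error, not computed for limma-voom) under each processing setting (vertical axis). The value is called only without GapmeR library 2, at -0.27, and lies between -0.18 and 0.10 in every other setting shown.

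GapmeR library 2 stood apart for C1d by 0.60 on the log2 scale from the mean of the other 3 GapmeR libraries, and 80 of 12772 genes (0.626%) deviated at least as far upwards in that library. Mphosph6 deviated by 0.41, Dis3 by 0.28 and Exosc10 by -0.29. Library 2 was the highest by a wide gap in 1.46% of all genes and the lowest by a wide gap in 1.12%, against 0.362% to 0.943% for the other GapmeR libraries in either direction. Its median deviation was 0.10 in the 25% of genes with the lowest GC content and -0.08 in the 25% with the highest, and in GapmeR library 3 these medians were -0.09 and 0.07. The C1d transcript has a GC content of 36.6%, near the low end of those 25% with the lowest GC content (31.2% to 45.8%), among which are also Tsn, Prkdc, Mphosph6, Dis3 and Exosc9. After a GC curve was removed from each library, C1d had 45.8, 59.6, 46.5 and 44.5 CPM in GapmeR libraries 1 to 4 and 48.8 and 55.7 CPM in the controls. Library 2 was still the highest, and the log2 fold change was -0.09 (SE 0.11, adjusted p = 0.547). What set library 2 apart was not tested.

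**Figure D3:**
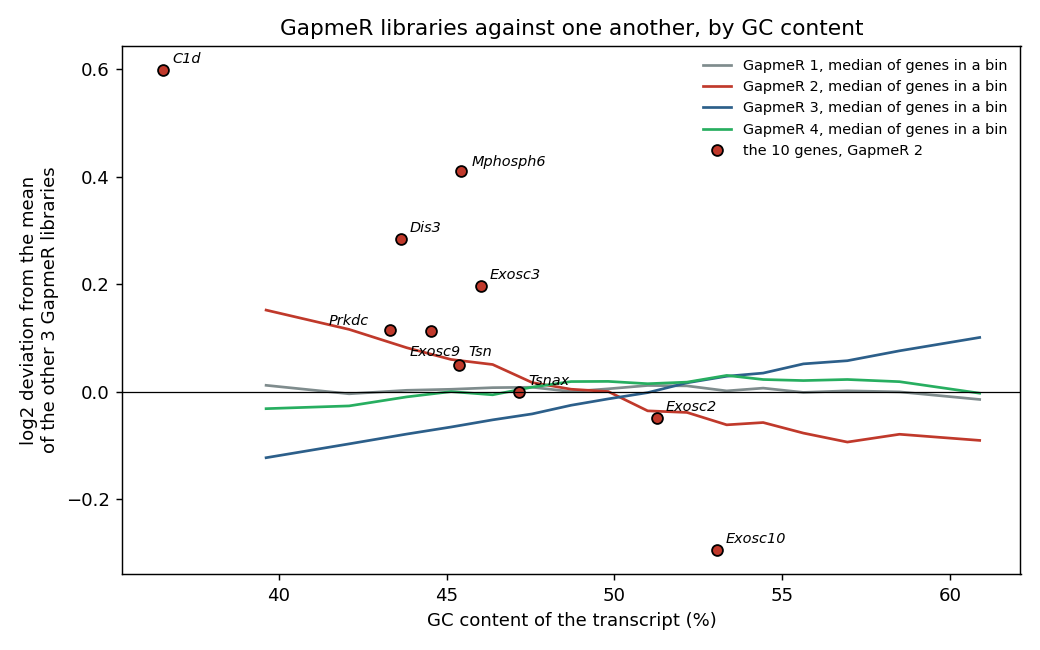
Log2 deviation of each GapmeR library from the mean of the other 3 (vertical axis) against transcript GC content (horizontal axis, %): lines are medians in 16 bins of genes, and points are the 10 genes in GapmeR library 2. C1d, at 36.6% GC, deviates by 0.60, and Exosc10, at 53.0% GC, by -0.29.

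Among the direct partners of C1D, the genes of the translin complex were not called. Tsnax had 54.3, 54.7, 53.3 and 56.6 CPM in the GapmeR libraries and 57.6 and 55.5 CPM in the controls, with a log2 fold change of -0.05 (95% interval -0.19 to 0.10, adjusted p = 0.603). Tsn, which encodes the nucleic acid-binding subunit translin, had 70.7, 68.9, 64.7 and 64.3 CPM against 62.2 and 66.9 CPM, with a log2 fold change of 0.06 (-0.10 to 0.21, adjusted p = 0.553). Both genes overlapped between the groups, and their intervals leave out a change of 1.5-fold in either direction. Pseudogenes resembling Tsnax, Gm8010 and Gm5761 (96.2% and 91.5% identical over 874 and 873 bases), had at most 3 counts in any library.

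Prkdc, the catalytic subunit of the DNA-dependent protein kinase, was the gene with the largest fold of the 10 and the least abundant. It had 7.50, 8.19, 7.74 and 7.37 CPM in the GapmeR libraries and 5.66 and 4.92 CPM in the controls, from 238 to 319 and 155 to 157 counts. Every GapmeR library lay above both controls. From a control mean of 5.29 ± 0.522 CPM (SD, n = 2), Prkdc reached 7.70 ± 0.364 CPM (SD, n = 4), a rise of 0.54 on the log2 scale (SE 0.13, adjusted p = 0.0030, fold 1.46). Without negative control 2 the value was 0.47 and not called (adjusted p = 0.0566). The start of Mcm4, a subunit of the replicative helicase, lies 434 bases from that of Prkdc on the other strand (GRCm39), and Mcm4 also rose, by 0.35 (SE 0.08, adjusted p = 0.0015).

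The nuclease EXOSC10, to which C1D binds, and its companion MPHOSPH6 were not called at the RNA level. Exosc10 had 68.7, 56.5, 67.0 and 72.7 CPM in the GapmeR libraries and 62.1 and 64.6 CPM in the controls, and GapmeR library 2 was the lowest of the 6. Its log2 fold change was 0.06 (95% interval -0.13 to 0.25, adjusted p = 0.595). Exosc10 exons share 821 bases with the pseudogene Gm13204 on the opposite strand (GRCm39), and the strand setting of the counting is not stated. Mphosph6 had 15.0, 19.6, 14.8 and 14.1 CPM against 15.5 and 14.1 CPM, with GapmeR library 2 the highest of the 6. Its log2 fold change was 0.11 (95% interval -0.16 to 0.38, adjusted p = 0.519), and -0.01 (adjusted p = 0.934) without that library. The pseudogene Gm11448, 96.5% identical to Mphosph6 over 458 bases, had at most 1 count in any library. A longer copy, the lncRNA gene Gm75778 (96.2% over 1080 bases), was not among the counted genes. How reads matching both a gene and its copy were counted was not examined, here or for Tsnax.

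Dis3, the processive nuclease of the nuclear exosome, rose. It had 54.4, 66.2, 50.1 and 58.6 CPM in the GapmeR libraries and 42.5 and 42.3 CPM in the controls. All 4 GapmeR libraries were above both controls, with library 2 the highest. The GapmeR mean of 57.3 ± 6.84 CPM (SD, n = 4) over the control mean of 42.4 ± 0.131 CPM (SD, n = 2) gave a log2 fold change of 0.44 (SE 0.10, adjusted p = 0.0018, fold 1.35). Dis3 was called under each alternative, at 0.36 without GapmeR library 2 and 0.39 after GC correction. Its exons share 1042 bases with Bora and 684 bases with Pibf1 on the opposite strand (GRCm39). Bora, an activator of mitotic kinases, rose by 0.56 (adjusted p = 0.0034, but 0.0555 without negative control 2), and Pibf1 was at 0.08 (adjusted p = 0.672). The strand setting of the counting is not stated, so reads of such pairs cannot be told apart.

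Exosc9, a ring subunit, also rose. It had 34.7, 36.2, 32.1 and 33.5 CPM in the GapmeR libraries and 24.5 and 26.6 CPM in the controls. The groups did not overlap, with 25.5 ± 1.49 CPM in the controls (SD, n = 2) and 34.1 ± 1.74 CPM after the GapmeR (SD, n = 4), a log2 fold change of 0.42 (SE 0.08, adjusted p = 0.0007, fold 1.33). The call held under each alternative. Exosc9 shares 714 exonic bases with Ccna2, the gene of cyclin A, on the opposite strand, and Ccna2 rose by 0.56 (SE 0.09, adjusted p = 0.0001).

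The cap subunits Exosc2 and Exosc3 were not called. Exosc2 ranged from 52.4 to 57.7 CPM in the GapmeR libraries and had 49.0 and 56.6 CPM in the controls. Its log2 fold change was 0.05 (95% interval -0.12 to 0.22, adjusted p = 0.625). Exosc2 exons share 820 bases with the lncRNA gene Gm13427 on the opposite strand. Exosc3 had 43.8, 50.2, 47.0 and 40.7 CPM in the GapmeR libraries and 51.3 and 52.2 CPM in the controls. Each GapmeR library lay below both controls, the nearest being library 2. The log2 fold change of Exosc3 was -0.19 (95% interval -0.36 to -0.01, adjusted p = 0.0818). Exosc3 was called lower without GapmeR library 2 (-0.24, adjusted p = 0.0116) and after GC correction (-0.27, adjusted p = 0.0088). That correction also moved the median of all genes from 0.03 to -0.11, and the share called lower from 20.0% to 32.0%. With library size scaling Exosc3 was at -0.04, beside a median of 0.17 for all genes. Its exons share 856 bases with Trmt10b on the opposite strand, which was at 0.25 (adjusted p = 0.0687).

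**Figure D4:**
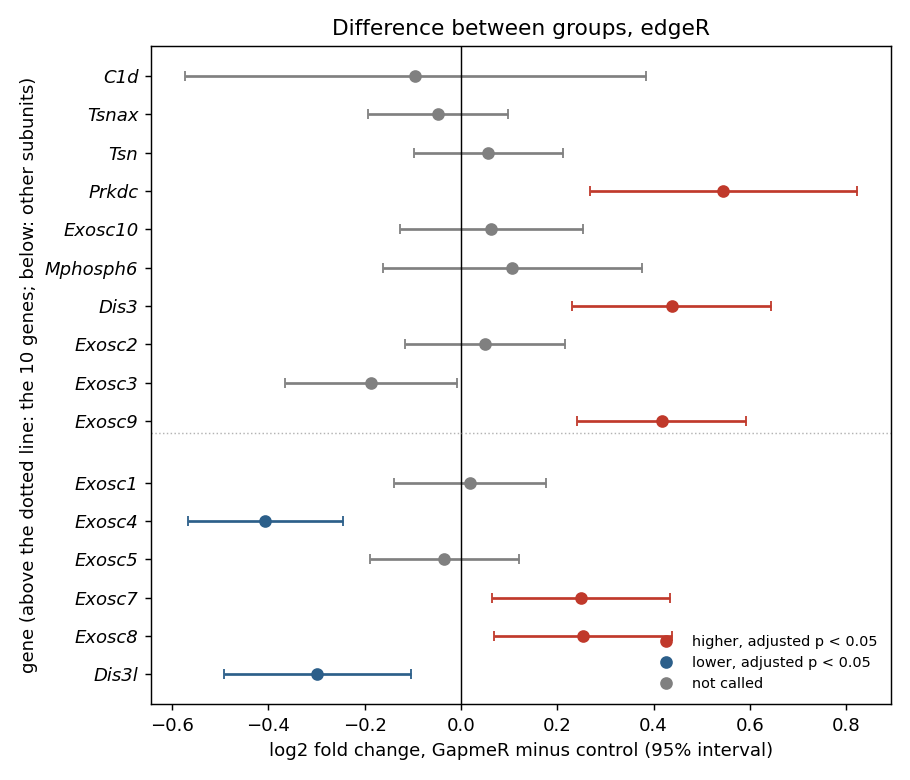
Log2 fold change with its 95% interval (horizontal axis, GapmeR minus control) of the 10 genes, above the dotted line, and of 6 other exosome subunits, below it; red and blue points were called higher and lower at an adjusted p under 0.05. Prkdc (0.54), Dis3 (0.44) and Exosc9 (0.42) are called higher, C1d has the widest interval of the 10 genes, and Exosc4 (-0.41) is called lower.

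The levels of the 10 genes were set side by side per kilobase of the canonical transcript. In the controls the order was Exosc3 (33.8 ± 0.453 CPM per kilobase, SD, n = 2), Exosc2 (31.1), Exosc10 (22.7), C1d (17.2 ± 1.87), Exosc9 (15.8), Mphosph6 (13.0), Tsn (9.09), Dis3 (8.23), Tsnax (6.35) and Prkdc (0.418). Over all 6 libraries the ranges of neighbours overlapped except between Exosc2 and Exosc10, Mphosph6 and Tsn, Dis3 and Tsnax, and Tsnax and Prkdc. When the length of all annotated exons was used, Exosc3 (22.0) and Exosc2 (16.8) stayed first and Prkdc (0.400) last, but Tsn (7.13) came before C1d (6.26) and Exosc10 (6.08), so the middle of the order depends on the length used.

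The balance between C1d and its partners was compared within each library as the log2 ratio of their counts, in 4 ratios tested by exact two-sided permutation with Benjamini-Hochberg adjustment. C1d to Prkdc was 2.58, 3.01, 2.45 and 2.54 in the GapmeR libraries and 3.09 and 3.52 in the controls. All 4 GapmeR libraries were below the controls, by 0.66 on average, with an exact permutation p = 0.0667, the smallest possible, and adjusted p = 0.267. C1d to Exosc10 was -0.61, 0.22, -0.67 and -0.76 against -0.36 and -0.20, with library 2 above both controls (p = 0.667 by the exact permutation test, adjusted p = 0.8). The difference was -0.18, and -0.40 without library 2. C1d to Tsnax differed by -0.07 (exact permutation p = 0.8, adjusted p = 0.8), or by -0.22 without library 2, and Tsn to Tsnax by 0.10 (exact permutation p = 0.267, adjusted p = 0.533). None could pass a threshold of 0.05 with 4 against 2 libraries.

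Of 7 other exosome subunit genes, 6 were tested, 2 were higher, 2 were lower and 2 were not called (25.4% higher and 20.0% lower over all genes), with a median log2 fold change of -0.01 against 0.03 for all genes tested. The table gave Exosc6 0 counts in every library. Exosc4, a ring subunit that contacts EXOSC9, had 63.9, 60.8, 63.5 and 54.7 CPM in the GapmeR libraries and 79.3 and 81.7 CPM in the controls, and fell by 0.41 (SE 0.08, adjusted p = 0.0004) where Exosc9 rose by 0.42. The count ratio of Exosc4 to Exosc9 was 1.84, 1.68, 1.98 and 1.63 in the GapmeR libraries and 3.24 and 3.07 in the controls, a pair chosen after the values were seen and not tested. Dis3l, the cytoplasmic counterpart of Dis3, fell by 0.30 (adjusted p = 0.0144), while the ring genes Exosc7 and Exosc8 were each higher by 0.25 (adjusted p = 0.0285 and 0.0263). Exosc4 was called under each alternative. Without negative control 2, Exosc7 (0.21, adjusted p = 0.206), Exosc8 (0.25, 0.138) and Dis3l (-0.33, 0.0575) were not called, without negative control 1 neither were Exosc8 (0.29, 0.0776) and Dis3l (-0.22, 0.195), and after GC correction neither were Exosc7 (0.02) and Exosc8 (0.09). With library size scaling Dis3l was at -0.15 and not called (adjusted p = 0.203). After GC correction the list had 0 higher and 3 lower, where 21.2% of all genes were higher and 32.0% lower.

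The nuclear adaptors that hand RNA to the exosome were higher in 4 of 15 genes and lower in 1, close to or below the 25.4% and 20.0% of all genes, with a median of 0.06. Zcchc7, a zinc-knuckle protein of the TRAMP polyadenylation complex, had 27.1, 24.6, 24.8 and 26.9 CPM in the GapmeR libraries and 11.8 and 10.8 CPM in the controls, a rise of 1.20 (SE 0.10, adjusted p = 4.44e-08, fold 2.29). Its groups did not overlap, and it had the largest change of the 15. Srrt, which encodes ARS2 of the cap-binding complex, rose by 0.84 (SE 0.08, adjusted p = 1.91e-07). Tent4b, a poly(A) polymerase of TRAMP, fell by 0.46 on the same scale (SE 0.08, adjusted p = 0.0002), and the helicase gene Mtrex, common to these adaptors, was at -0.03 (adjusted p = 0.837). Ncbp1 (0.22, adjusted p = 0.0186) and Zcchc8 (0.21, adjusted p = 0.0317) were higher. Neither of those 2 was called without negative control 2 (0.20 and 0.15, adjusted p = 0.157 and 0.292), and Zcchc8 was also not called without GapmeR library 1 (adjusted p = 0.0523) or 4 (adjusted p = 0.0677). Ncbp1 and Zcchc8 were also not called after GC correction (0.10 and 0.09, adjusted p = 0.245 and 0.329) or with GapmeR libraries 1 and 2 only (adjusted p = 0.062 and 0.110).

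The Ski complex, which feeds RNA to the cytoplasmic exosome, was higher in 3 of 4 genes, where 25.4% of all genes were higher, with a median of 0.29. Hbs1l rose by 0.62 (SE 0.07, adjusted p = 2.94e-06, 95.9 to 102 CPM against 62.6 and 66.5 CPM) and Skic3 by 0.38 (SE 0.08, adjusted p = 0.0008). Hbs1l makes both a GTPase of ribosome rescue and, by splicing, the Ski adaptor, and gene counts do not separate the products. Skic2, the helicase, was higher by 0.21 (adjusted p = 0.0196), but was at -0.04 after GC correction and was not called without negative control 1 (adjusted p = 0.0988) or 2 (adjusted p = 0.0798). Skic8 was at 0.19 (adjusted p = 0.0914). Of the Sas10/C1D domain family, whose 3 genes include C1d, Utp3 fell by 0.33 (adjusted p = 0.0015, but -0.22 and 0.100 without negative control 2) and Ngdn was at 0.02. Both act in making ribosomes.

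**Figure D5:**
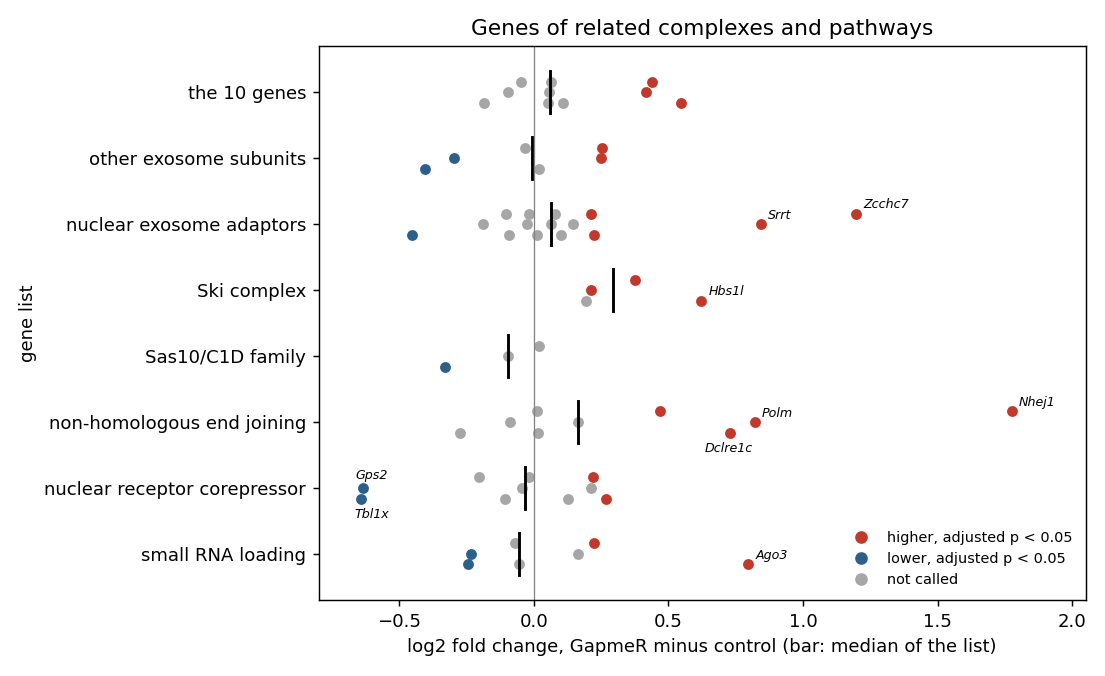
Log2 fold change (horizontal axis, GapmeR minus control) of each tested gene in 8 gene lists (vertical axis), with a black bar for the median of each list and colour for genes called at an adjusted p under 0.05. The median lies between -0.09 and 0.29, and Nhej1 (1.78) and Zcchc7 (1.20) lie farthest to the right.

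Non-homologous end joining, the repair pathway of Prkdc, was higher in 4 of 9 further genes and lower in none, where 25.4% of all genes were higher and 20.0% lower, with a median of 0.17. Polm, a repair DNA polymerase, rose by 0.82 (SE 0.11, adjusted p = 2.44e-05) and Dclre1c, the Artemis nuclease that Prkdc activates, by 0.73 (SE 0.15, adjusted p = 0.0009). Nhej1, the ligation factor XLF, rose by 1.78 (SE 0.37, adjusted p = 0.0009) from few counts, 38, 33, 32 and 32 in the GapmeR libraries and 10 and 7 in the controls. Paxx rose by 0.47 (adjusted p = 0.0042), and was at 0.22 and not called after GC correction (adjusted p = 0.0971). The Ku genes, whose products form a dimer that recruits the kinase, were not called, with Xrcc5 at 0.01 (adjusted p = 0.938) and Xrcc6 at 0.17 (adjusted p = 0.118). Lig4 (-0.27, adjusted p = 0.104), Xrcc4 (-0.09) and Poll (0.01) were not called either. After GC correction the list had 3 higher and 1 lower, where 21.2% of all genes were higher and 32.0% lower.

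C1D is also known as a corepressor of nuclear receptors, and 2 of the 10 corepressor genes were higher and 2 lower, near the shares of all genes (25.4% and 20.0%), with a median of -0.03. Tbl1x fell by 0.64 (SE 0.07, adjusted p = 1.25e-06, 73.7 to 78.9 CPM against 116 and 123 CPM) and Gps2, another part of the NCoR complex, also by 0.64 (SE 0.08, adjusted p = 9.83e-06). Hdac3 (0.27, adjusted p = 0.0356) and Ncor1 (0.22, adjusted p = 0.0177) were higher. These 2 calls were lost without negative control 1 (adjusted p = 0.138 and 0.0697) or 2 (0.119 and 0.116), and Hdac3 also without GapmeR library 2 (0.0538) or 4 (0.0611). After GC correction neither Hdac3 (0.14, adjusted p = 0.218) nor Ncor1 (0.09, adjusted p = 0.254) was called. The list then had 0 of 10 higher and 4 of 10 lower, where 21.2% of all genes were higher and 32.0% lower. The thyroid hormone receptor genes Thra (-0.11) and Thrb (-0.05) and the REV-ERB gene Nr1d1 (0.21) were not called.

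Translin and TRAX help load small RNAs, and in that list 2 of 7 genes were higher and 2 lower, near the shares of all genes (25.4% and 20.0%), with a median of -0.06. Ago3 rose by 0.80 (SE 0.10, adjusted p = 8.55e-06), at 14.7 to 15.7 CPM in the GapmeR libraries and 8.58 and 8.81 CPM in the controls. Dicer1 was higher by 0.22 (adjusted p = 0.0166), and Ago2 (-0.25, adjusted p = 0.0132) and Tarbp2 (-0.23, adjusted p = 0.0113) were lower. None of these 3 was called without negative control 1 (adjusted p = 0.0967, 0.150 and 0.125) or 2 (0.0656, 0.0944 and 0.0937). With library size scaling Ago2 (-0.10, adjusted p = 0.277) and Tarbp2 (-0.09, adjusted p = 0.32) were not called, and after GC correction Dicer1 (0.11, adjusted p = 0.191) was not. The list then had 3 higher and 0 lower with library size scaling, where 33.5% of all genes were higher and 11.7% lower. After GC correction it had 1 higher and 3 lower, where 21.2% of all genes were higher and 32.0% lower. Across the lists, Exosc4, Zcchc7, Srrt, Tent4b, Hbs1l, Skic3, Polm, Dclre1c, Tbl1x, Gps2 and Ago3 were called in the same direction under each alternative, and so was Nhej1 wherever it passed the filter. The signs of some list medians turned with the scaling. With library size only, the medians of the other exosome subunits, the Sas10/C1D family, the corepressor genes and the small RNA genes were 0.14, 0.06, 0.12 and 0.09, beside 0.17 for all genes. After GC correction those of the 10 genes and the adaptors were -0.05 and -0.08, beside -0.11 for all genes.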

How the data were processed

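Ribosomal RNA was depleted and paired reads were sequenced from 6 bEND.3 libraries. The authors trimmed reads, aligned them to mm10 (GRCm38) with Ensembl transcripts within bcbio-nextgen, and deposited the read counts of each Ensembl gene as whole numbers without normalization. The submitters' processing notes name Trimmomatic 0.36, STAR 2.5.2b and Subread 1.5.2. Neither the Ensembl release nor whether counting used strand is given in the sources used here. The study describes 4 libraries per group, and the 2 control libraries labelled here were used. The count table has 1 further sample column that matches no labelled sample and was not used.

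Counts were tested with edgeR 4.0.16 (quasi-likelihood test, TMM) in R 4.3.3 for genes reaching 5 counts in 2 or more libraries. P-values were adjusted over all tested genes by the Benjamini-Hochberg method, and called means an adjusted p under 0.05. Alternatives used DESeq2 1.42.0, limma 3.58.1, other scalings and filters, a replicate block and leaving out each library. GC correction removed a loess curve of span 0.3, and it, GapmeR libraries 1 and 2 only, and library size scaling without GapmeR library 2 were added after the data had been seen. Intervals of fold changes are 95% intervals.

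The 10 genes, the gene lists and the markers were chosen with earlier results of these data known. Named genes are all 10 genes, up to 4 called genes per list with the largest change, genes starting within 2000 bases on the opposite strand, and genes in counts of 5 or fewer. Others of a list were named after their values were seen. Positions are from RefSeq on GRCm38.p6. Transcript length, GC content, shared exons and similar copies (blastn 2.17.0, at least 90% over 300 bases) are from GENCODE on GRCm39. Replicate numbers were not taken to pair libraries in the main fit. Same-numbered deviations correlated at -0.0393 and 0.0932 over 12772 genes. The deviations of 2 controls from their mean mirror each other, so these correlations cannot settle whether the numbers pair libraries.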

Additional observations from a re-analysis of the deposited data

Results flagged for a closer look

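Results were flagged where 1 of the 4 GapmeR libraries lay so far from the others that its gap to the nearest, divided by the range, passed Dixon's 95% critical value. Chance flags about 5% of such groups. GapmeR library 2 was flagged in 3 results. Its C1d level was 65.9 CPM, with a gap of 0.885 of the range. Its Mphosph6 level was 19.6 CPM (0.835 of the range). Its log2 ratio of C1d to Exosc10 was 0.22 (0.846 of the range), a value that holds C1d again and so is not a separate observation. Without this library the log2 fold change was -0.27 for C1d and -0.01 for Mphosph6, and the difference in the ratio between groups was -0.40 in place of -0.18.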

How the results depend on the processing

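The count of called genes among the 10 was 3. It was 5 with library size only, 6 with library size only and without GapmeR library 2, and ran from 2 to 5 when 1 library was left out. The lowest came without negative control 2, where Prkdc was at 0.47, and the highest without GapmeR library 2. The count called with at least 1.5-fold change was 0. It was 2 with library size only, and 1 with at least 10 counts in every library, with the replicate block, with GapmeR libraries 1 and 2 only, and with library size only without GapmeR library 2, and 0 to 1 with 1 library left out.

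C1d was at -0.09. It was 0.056 with library size only, 0.086 with the replicate block and 0.10 with GapmeR libraries 1 and 2 only, and ran from -0.27 to 0.042 when 1 library was left out. The replicate-block fit did not change the count of called genes, which was 3 over the 4 libraries it can use. Whether the numbers pair libraries is not known. In that fit 2 adaptors were higher and 2 lower in place of 4 and 1, where 25.8% of all genes were higher and 18.8% lower. Ncbp1 (adjusted p = 0.0529), Zcchc8 (0.0903), Skic2 (0.0653) and Tarbp2 (0.0708) were not called in it. Other reversals were of values not called. Tsnax was 0.10 with library size only and 0.094 when GapmeR library 2 was also left out. Tsn was -0.010, Exosc10 -0.14 and Exosc2 -0.089 after GC correction. Exosc10 was -0.0022 with the replicate block. With 1 library left out, Mphosph6 ran from -0.011 to 0.19 and Exosc2 from -0.030 to 0.18. Where a control was left out, the lone control was assumed to vary like the GapmeR group. Gm39822 had no value with the stricter filter or with a control left out, since it then failed the filter. The causes were not tested.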
